A study of Mus musculus with 2 samples.

Results

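The genes described here are 10 effector genes of cytotoxic lymphocytes, the natural killer (NK) cells and T cells that kill other cells. They were chosen by name as rows of the count table: Gzma, Gzmb, Prf1, Nkg7, Ncr1, Klre1, Klra7, Cd160, Cd8a and Ifng. All 10 were found among the 31053 genes of the table. Livers of C57BL/6 mice were perfused, and the released cells were captured in droplets for single-cell sequencing of RNA 3′ ends, in 1 control and 1 induced library. The control mouse (LaptTA;WT) carried the tetracycline-controlled transactivator tTA under the liver-specific LAP promoter and no responder transgene. The induced mouse (LaptTA; tetYAP) carried the same transactivator and a tetracycline-responsive YAP S127A, a constitutively active mutant of the transcriptional coactivator YAP. Doxycycline food kept the transgene silent until 4 weeks of age, and a regular diet then allowed 4 weeks of induction (tetYAP 4W). Each group was 1 library, so no test between groups was possible, and every interval below is a 95% interval for counting error only.

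Cytotoxic lymphocytes kill by releasing granules towards a bound target cell. Perforin (Prf1) opens the target's membrane, and granzymes, serine proteases such as those of Gzma and Gzmb, enter and start cell death. NK cells recognise targets through germline-encoded receptors and carry no T cell receptor, whereas a T cell displays its receptor together with the CD3 chains encoded by Cd3d, Cd3e and Cd3g. Both cell types secrete interferon gamma (Ifng). The liver is rich in NK cells, in resident innate lymphocytes and in unconventional T cells.

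The labels call the cells hepatocytes, but 9 of 16 clusters took the name of another class from their markers. In 1 of these, all 16 genes of a T or NK cell marker list passed. It held 138 of 1524 barcodes of the tetYAP 4W library (9.06%, 7.66 to 10.6) and 16 of 2989 control barcodes (0.535%, 0.306 to 0.868). These are called lymphoid below. The 10 effector genes and the CD3 genes were left out of the genes used for clustering, although the CD3 genes stood in the marker list that named the cluster. Hepatocyte marker transcripts were present in every group of barcodes, with medians of 279 UMIs (unique molecular identifiers, the counted molecules) in CD3-free lymphoid, 262.5 in CD3-bearing lymphoid and 277 in all other tetYAP 4W barcodes. The libraries also differed in depth, with a median of 3117 UMIs per control and 4150 per tetYAP 4W barcode, in their lowest barcode, at 516 and 2355 UMIs, and in the median mitochondrial share, at 28.1% and 37.7%. No barcode sequence occurred in both. After the study's down-sampling and upper UMI limit, 2989 control and 1524 tetYAP 4W barcodes remained, the deepest at 7277 and 7493 UMIs. How far lymphocytes passed the perfusion and the barcode filters equally in both libraries was not tested.

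Over whole libraries, each effector gene had few or no UMIs in the control and between 31 and 594 in the tetYAP 4W library. The 10 genes together went from 31 UMIs (21.1 to 44.0) in the control to 1502 (1427 to 1580) in tetYAP 4W, or from 3.26 to 222 CPM (UMIs scaled to a total of 1000000), a log2 ratio of 6.09 (5.58 to 6.65). The 3 CD3 genes had 48 and 790 UMIs (log2 ratio 4.53, 4.11 to 4.98). Nkg7, a membrane protein of cytotoxic granules, had 19 control and 594 tetYAP 4W UMIs, a log2 ratio of 5.46 (4.80 to 6.20). Klre1, a lectin-like NK receptor, went from 4 to 74 UMIs (4.70, 3.28 to 6.61), and Gzma from 3 to 453 (7.73, 6.17 to 10.01). Control counts were lower still for the other 7 genes. Ncr1 had 2 control and 71 tetYAP 4W UMIs, Gzmb 1 and 70, Ifng 1 and 69, and Klra7 1 and 54. Prf1, Cd160 and Cd8a were not detected in the control and had 31, 48 and 38 UMIs in tetYAP 4W, which made them at least 14.5-fold, 22.5-fold and 17.8-fold higher when 3 control UMIs were allowed for a count of 0. By this measure 10 of 10 genes were at least 2-fold higher in tetYAP 4W. Among all 12621 genes with at least 10 UMIs, 38.3% were at least 2-fold higher and 7.89% at least 2-fold lower, and the median log2 ratio was 0.60. In sums over barcodes, more lymphoid barcodes and more UMIs per lymphoid barcode add to the same number.

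Both quantities were higher in tetYAP 4W. A lymphoid barcode held 1.62 effector gene UMIs (1.06 to 2.38) in the control and 10.7 (10.2 to 11.3) in tetYAP 4W. CD3 UMIs stood at 2.25 per control and 5.53 per tetYAP 4W lymphoid barcode. Among CD3-bearing barcodes alone the effector sum was 1.30 per barcode (0.692 to 2.22) in 10 control and 6.36 (5.89 to 6.86) in 108 tetYAP 4W barcodes. Nkg7 was at 0.875 (0.478 to 1.47) per control and 4.22 (3.89 to 4.58) per tetYAP 4W lymphoid barcode. Klre1, at 0.25 (0.0681 to 0.640) and 0.529 (0.415 to 0.665), had intervals that overlapped. Gzma, at 0.188 (0.0387 to 0.548) and 3.23 (2.94 to 3.55), had intervals that lay apart, although its control UMIs lay in 1 of the 16 barcodes. The intervals of Gzmb, Ifng and Cd160 also lay apart, from control counts of 1, 1 and 0 UMIs. Those of Prf1, Ncr1, Klra7 and Cd8a overlapped. Leaving out barcodes marked as plasmacytoid dendritic cells (described below) left 13 control and 131 tetYAP 4W barcodes. The intervals of Gzmb, Ifng and Cd160 then overlapped too, with Gzmb at 0.0769 (0.00195 to 0.429) and 0.519 (0.403 to 0.658). Those of Nkg7, Gzma and the sum of the 10 genes still lay apart. With 16 control barcodes from 1 mouse, the control level of these genes was poorly resolved.

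The effector genes stayed within the lymphoid barcodes. Of the 1502 UMIs, 1476 (98.3%, 97.5 to 98.9) fell in them. The other 1386 barcodes had a median depth of 4095.5 against 4831 UMIs and a median mitochondrial share of 40.6% against 23.0%. They held the remaining 26 UMIs in 19 barcodes (1.37%, 0.827 to 2.13). Macrophage-like barcodes held 8 of these UMIs over 283 barcodes, stellate or mesenchymal cell-like barcodes 6 over 169, B cell-like barcodes 5 over 47, and barcodes of clusters that no marker list named 4 over 675. The 47 monocyte or neutrophil-like barcodes held 2 and the 127 endothelial cell-like barcodes 1. Klra7, Cd160 and Cd8a had no UMI outside the lymphoid barcodes, which allows a count of up to 3 over those 1386. Unlike the hepatocyte markers, the effector genes were thus near 0 in barcodes of the other classes. At a finer clustering (Leiden resolution 1.2) the T or NK cell name went to a cluster of 97 tetYAP 4W barcodes, with 35.2% of the effector gene UMIs and 1.03% CD3-free barcodes. The 2 clusters of that resolution that held most of these barcodes, a setting chosen after seeing the data, gave the same 138 when joined.

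Of the 138 lymphoid barcodes of tetYAP 4W, 108 held at least 1 UMI of Cd3d, Cd3e or Cd3g (CD3-bearing), and 30 held none (CD3-free; 21.7%, 15.2 to 29.6). Median depth was 4831 and 4786.5 UMIs, so the groups were close in depth. The 30 CD3-free barcodes were not of 1 kind. A group of 7 held 30 to 75 UMIs of a plasmacytoid dendritic cell (pDC) marker list (Siglech, Bst2, Ccr9, Cox6a2, Klk1 and Runx2), and none of these 7 had a single effector gene UMI. The other 23 held at most 3 UMIs of that list. Values are therefore given with the 7 barcodes and, where it matters, without them. In the control, 6 of 16 lymphoid barcodes were CD3-free, and 3 of these 6 were pDC-marked. Of other immune cells, macrophage markers stood at 3.97 UMIs per CD3-free, 3.69 per CD3-bearing and 17.0 per other barcode of tetYAP 4W. Monocyte or neutrophil markers were highest in the CD3-free group, at 3.93 against 1.66 and 1.52 UMIs per barcode, with 3 of 9 detected there and S100a8 and S100a9 at 0. B cell markers stood at 1.53, 0.343 and 0.860, with 3 of 9 detected in CD3-free barcodes and Cd79a and Ms4a1 at 0. Both were higher in the 7 pDC-marked than in the 23 other CD3-free barcodes. Monocyte or neutrophil markers had medians of 8 and 1 UMIs there (at most 25 and 5). B cell markers had medians of 7 and 0 (at most 7 and 2). Their part in the ratios given next was not tested gene by gene.

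**Figure D1:**
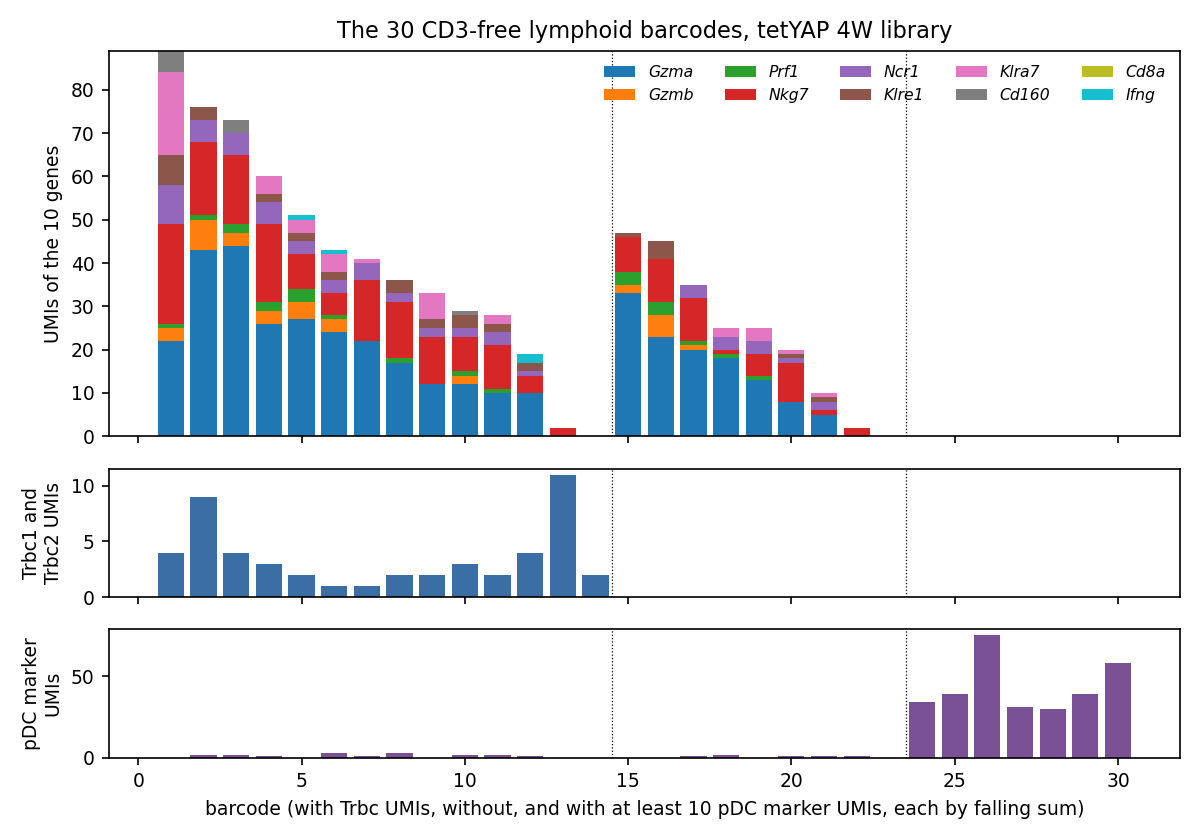
The 30 CD3-free lymphoid barcodes of the tetYAP 4W library (x axis, 1 bar each), with the UMIs of the 10 effector genes stacked by gene (top), the summed Trbc1 and Trbc2 UMIs (middle) and the summed pDC marker UMIs (bottom). The 14 barcodes with Trbc UMIs stand left of the first dotted line, and the 7 pDC-marked barcodes, right of the second, hold no effector gene UMI.

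The granule genes separated most clearly with Gzma. Gzma, a tryptase, had 389 UMIs in 19 of 30 CD3-free barcodes (63.3%, 43.9 to 80.1) and 57 UMIs in 5 of 108 CD3-bearing barcodes (4.63%, 1.52 to 10.5). Positive CD3-free barcodes held between 5 and 44 UMIs with a median of 20, so Gzma was either plainly present or at 0. In CPM the log2 ratio of CD3-free to CD3-bearing was 4.55 (4.15 to 4.98). Prf1, the pore former, had 22 UMIs in 14 CD3-free and 8 UMIs in 7 CD3-bearing barcodes, a log2 ratio of 3.24 (2.02 to 4.62). Gzmb, a protease that cuts after aspartate, was divided differently from Gzma, with 33 UMIs in 10 CD3-free and 35 UMIs in 17 CD3-bearing barcodes and a log2 ratio of 1.69 (0.96 to 2.42). Nkg7 was the most widely held granule gene. It was found in 21 CD3-free (195 UMIs) and 83 CD3-bearing barcodes (388 UMIs), at a log2 ratio of 0.79 (0.53 to 1.04), or 1.25 (0.994 to 1.502) without the 7 pDC-marked barcodes.

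Since Gzma, Prf1 and Ncr1 were often found in the same barcodes, promoters of the effector genes were compared, taken from RefSeq on GRCm38.p6 (mm10) as 250 bases before to 50 after the gene start. All 10 genes had at least 1 entry, 14 in all. The letters TGTGGT, the core recognised by RUNX factors, were searched on both strands and are in capitals. They occur at least once in the promoters of 7 of the 10 genes (Gzma, Gzmb, Prf1, Nkg7, Ncr1, Klre1 and Cd160), in 9 of their 14 promoters, and in 16.8% of all 32851 promoters. The promoters of Cd8a, Ifng and Klra7 hold none in this window. Shown are the 3 genes with the clearest split and a match, Gzma (chr13:113100932-113101231, minus strand), Prf1 (chr10:61297586-61297885, plus strand) and Ncr1 (chr7:4337465-4337764, plus strand). Gzmb (chr14:56262285-56262584, minus strand) with 2 matches and Ifng (chr10:118440796-118441095, plus strand) with none, both more evenly or oppositely divided, are set beside them:
Gzma: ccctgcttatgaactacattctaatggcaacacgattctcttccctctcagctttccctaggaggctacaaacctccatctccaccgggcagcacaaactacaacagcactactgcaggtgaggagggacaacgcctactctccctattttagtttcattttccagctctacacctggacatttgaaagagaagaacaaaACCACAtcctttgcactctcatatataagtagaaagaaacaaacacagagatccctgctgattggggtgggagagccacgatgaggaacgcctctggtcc
Prf1: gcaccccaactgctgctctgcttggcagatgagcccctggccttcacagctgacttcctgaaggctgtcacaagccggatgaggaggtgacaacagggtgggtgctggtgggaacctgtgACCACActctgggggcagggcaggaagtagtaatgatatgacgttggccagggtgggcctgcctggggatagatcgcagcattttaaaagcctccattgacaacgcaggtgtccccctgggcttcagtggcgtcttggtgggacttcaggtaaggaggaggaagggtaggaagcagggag
Ncr1: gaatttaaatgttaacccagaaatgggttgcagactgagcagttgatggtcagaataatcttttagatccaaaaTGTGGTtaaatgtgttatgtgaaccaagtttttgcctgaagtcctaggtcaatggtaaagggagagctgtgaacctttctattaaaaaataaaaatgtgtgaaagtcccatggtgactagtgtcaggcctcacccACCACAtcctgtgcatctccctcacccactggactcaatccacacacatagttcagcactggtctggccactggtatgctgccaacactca
Gzmb: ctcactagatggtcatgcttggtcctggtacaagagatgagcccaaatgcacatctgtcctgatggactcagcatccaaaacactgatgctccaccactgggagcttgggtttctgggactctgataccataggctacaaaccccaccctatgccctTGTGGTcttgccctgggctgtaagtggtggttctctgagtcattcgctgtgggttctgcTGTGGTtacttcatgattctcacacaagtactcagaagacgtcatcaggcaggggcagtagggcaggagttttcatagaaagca
Ifng: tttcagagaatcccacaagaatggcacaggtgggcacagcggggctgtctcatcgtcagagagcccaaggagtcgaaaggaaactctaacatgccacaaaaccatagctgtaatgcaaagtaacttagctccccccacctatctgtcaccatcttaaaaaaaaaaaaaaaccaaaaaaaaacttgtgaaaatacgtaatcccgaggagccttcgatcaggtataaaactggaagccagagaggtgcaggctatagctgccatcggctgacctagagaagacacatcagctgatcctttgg
Of 3 further motifs searched, the T-box letters TCACAC occur in promoters of 5 of the 10 genes, the ETS letters GGAAGT in 2 and the AP-1 letters TGANTCA in 1. Per promoter they occur in 8, 2 and 1 of the 14, against 14.5%, 23.8% and 7.81% of all promoters. Entries of the same gene can overlap, as those of Ncr1 do, so 1 match may be counted more than once. All are matches of letters and not measured binding. The transcripts of the RUNX and T-box factors on the gene lists were themselves scarce: Runx3 had 8 UMIs in CD3-free and 38 in CD3-bearing barcodes (log2 ratio -0.47, -1.78 to 0.65), Tbx21 had 6 and 18 (0.19, -1.43 to 1.59), and Eomes 8 and 7 (1.97, 0.31 to 3.67).

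Among the receptors, Ncr1 and Klra7 followed Gzma and Cd160 did not. Ncr1 encodes NKp46, an activating receptor by which NK cells and related innate lymphocytes are commonly defined. It had 56 UMIs in 17 CD3-free barcodes (56.7%, 37.4 to 74.5) and 13 UMIs in 4 CD3-bearing barcodes (3.70%, 1.02 to 9.21), a log2 ratio of 3.89 (2.997 to 4.881). Klra7, a Ly49 receptor for class I MHC molecules, had 46 UMIs in 11 CD3-free and 8 UMIs in 3 CD3-bearing barcodes (4.30, 3.205 to 5.598), with 19 of the 46 in 1 barcode. It belongs to a family of near-identical genes, 11 of which are rows of the table, and 11 of its 14 barcodes held another Klra gene as well, so reads may have been divided among them. Klre1 had 35 UMIs in 14 CD3-free and 38 UMIs in 15 CD3-bearing barcodes, a log2 ratio of 1.66 (0.96 to 2.36). Cd160, a receptor for HVEM and class I molecules, had 9 UMIs in 3 CD3-free and 39 UMIs in 19 CD3-bearing barcodes. Its log2 ratio of -0.34 had an interval on both sides of 0 (-1.57 to 0.73).

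The coreceptor and the cytokine lay on the CD3-bearing side. Cd8a, the alpha chain of the CD8 coreceptor, had 38 UMIs in 19 CD3-bearing barcodes (17.6%, 10.9 to 26.1) and was not detected in the 30 CD3-free barcodes. Allowing 3 UMIs for that 0, it was at least 3.69-fold lower there, or at least 2.68-fold lower without the pDC-marked barcodes. Ifng had 63 UMIs in 39 CD3-bearing barcodes (36.1%, 27.1 to 45.9) and 4 UMIs in 3 CD3-free barcodes (10%, 2.11 to 26.5), a log2 ratio of -2.20 (-4.12 to -0.77). Most Ifng-positive barcodes held 1 UMI and none more than 5. At 1000 UMIs per barcode, where 39.9% of lymphoid barcodes were called CD3-free, the Ifng ratio was 0.96 (-0.64 to 2.62), on the other side of 0.

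**Figure D2:**
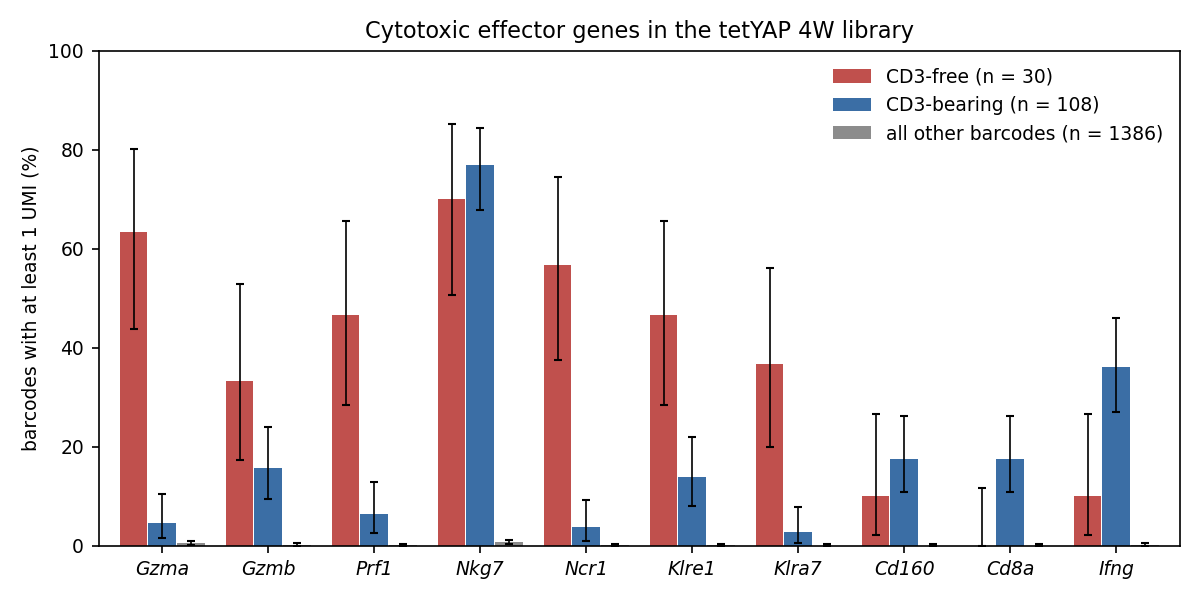
Share of tetYAP 4W barcodes with at least 1 UMI of each effector gene (y axis, %), for CD3-free lymphoid, CD3-bearing lymphoid and all other barcodes. Bars are shares and error bars exact binomial 95% intervals. Gzma stood at 63.3% and 4.63% in the first 2 groups, Ifng at 10% and 36.1%, and no gene passed 0.649% in the other barcodes.

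For the 10 genes together, CD3-free barcodes held 789 UMIs (26.3 per barcode, 24.5 to 28.2) and CD3-bearing barcodes 687 (6.36 per barcode, 5.89 to 6.86). The log2 ratio in CPM was 1.98 (1.83 to 2.13), and 2.44 (2.29 to 2.59) without the pDC-marked barcodes. It was 2.08 (1.92 to 2.24) without barcodes that held at least 10 UMIs of B cell, macrophage and monocyte or neutrophil markers, an alternative chosen after seeing the data. By gene, 6 were at least 2-fold higher in CD3-free barcodes (Gzma, Gzmb, Prf1, Ncr1, Klre1 and Klra7), 2 were at least 2-fold lower (Cd8a and Ifng) and 2 lay between. Among all 6123 genes with at least 10 UMIs in these barcodes, 11.3% were at least 2-fold higher and 4.82% at least 2-fold lower. The median log2 ratio was 1.68 over the 10 genes and 0.06 over all genes. After thinning every barcode to 2000 UMIs, the shares with Gzma were 63.3% and 3.70%, those with Prf1 26.7% and 3.70%, and those with Ifng 6.67% and 17.6%.

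The split depended on which genes stood for a T cell. Trac, the constant region of the T cell receptor alpha chain, was not detected in any of the 30 CD3-free barcodes, against 143 UMIs in 70 of the 108 CD3-bearing ones. A call from CD3 or Trac would thus leave the same 30. The beta chain constant regions Trbc1 and Trbc2, however, had 50 UMIs in 14 of the 30, and Trbc1 was found in 13 of these 14. Whether these 14 were NK cells or T cells whose CD3 transcripts were not captured cannot be told apart in these counts. Of the 19 CD3-free barcodes with Gzma, 12 held Trbc1 UMIs. Counting these 14 barcodes with the CD3-bearing ones left 16, of which 7 were pDC-marked, and the log2 ratio of the summed genes was then 0.24 (0.02 to 0.45). Under this call Gzma stood at 1.40 (1.08 to 1.70), Prf1 at 1.61 (0.30 to 2.80) and Ncr1 at 0.59 (-0.445 to 1.504). Klra7, at 4.30 by CD3 alone, stood at 0.09 (-1.30 to 1.24). Nkg7 lay on the other side of 0, at -0.71 (-1.18 to -0.27), and at 0.31 (-0.16 to 0.74) once the pDC-marked barcodes were left out too. Gzmb and Klre1 reached -0.07 and -0.40, both with intervals across 0. Without the pDC-marked barcodes, the summed ratio under this call was 1.25 (1.03 to 1.46). The 14 CD3-free barcodes with Trbc UMIs held a mean of 41.4 effector gene UMIs (38.1 to 44.9), and single barcodes 0 to 89. Of their 580 UMIs, 578 lay in the 12 that also held Gzma. The 9 with neither Trbc UMIs nor the pDC mark held a mean of 23.2 (20.2 to 26.6), and single barcodes 0 to 47. Both means lay above the 6.36 of CD3-bearing barcodes. The direction for Gzma and Prf1, at full depth, thus held under the calls from CD3 alone and from CD3 or T cell receptor genes. Cd8a and Ifng stayed lower under the second call only as bounds, since its 16 barcodes held 0 UMIs of either. The direction for Nkg7, Gzmb and Klre1 did not hold, and for Ncr1 and Klra7 the interval spanned 0. These values include the 7 pDC-marked barcodes, which add to the total but hold no effector gene UMI. Without them Gzmb stood at 0.94 (-0.33 to 2.01). The 9 barcodes left held 12 Ncr1, 7 Klre1 and 7 Klra7 UMIs, and 0 of Cd8a and Ifng.

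**Figure D3:**
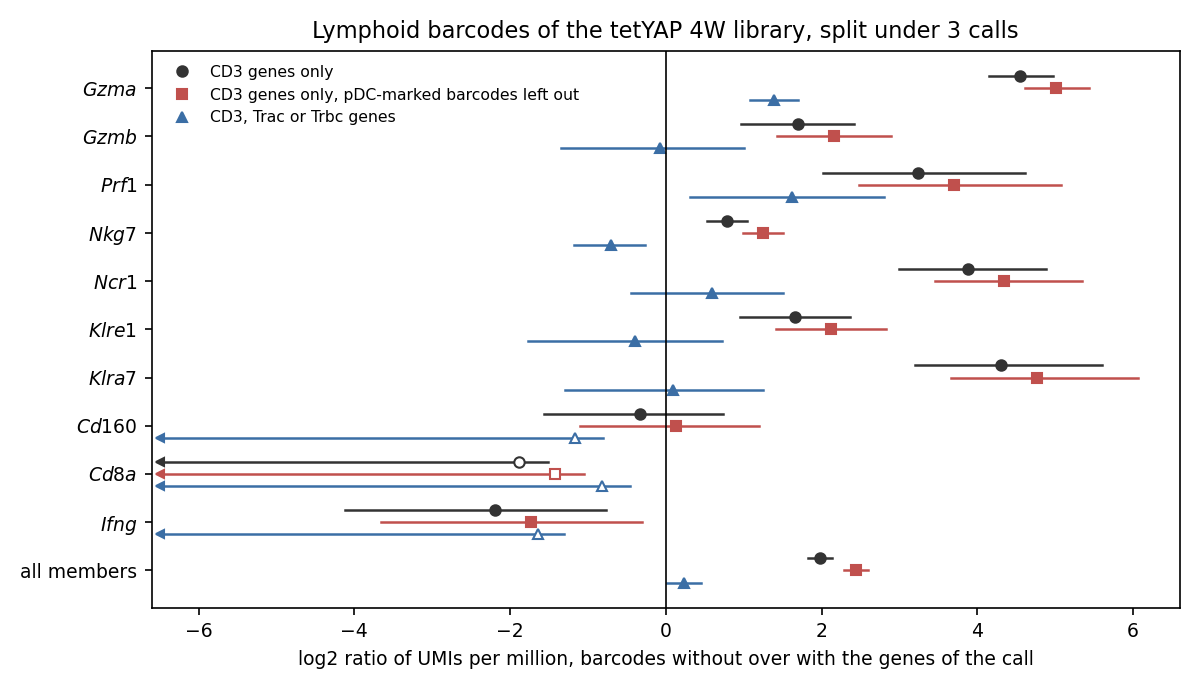
Log2 ratio of CPM between lymphoid barcodes without and with T cell genes (x axis), per effector gene and for their sum, in the tetYAP 4W library, with the T cell side called from CD3 genes (circles), the same without the 7 pDC-marked barcodes (squares), or from CD3, Trac or Trbc genes (triangles). Lines are 95% counting intervals, and open symbols with arrows are bounds from a count of 0. For the sum the 3 values are 1.98, 2.44 and 0.24.

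Within single barcodes the effector genes appeared as a set in the CD3-free group and thinly in the CD3-bearing group. Among the CD3-free barcodes 9 held none of the 10 genes, 2 held 1, none held 2 or 3, and 19 held between 4 and 8. At least 5 genes were found together in 18 of 30 CD3-free barcodes (60%, 40.6 to 77.3) and in 8 of 108 CD3-bearing barcodes (7.41%, 3.25 to 14.1). At least 2 genes were found in 19 of 30 and in 64 of 108. CD3-bearing barcodes most often held 2 genes (35 barcodes), 1 gene (23) or none (21). No barcode held 9 or 10 genes. At 2000 UMIs per barcode, 26.7% of CD3-free and 3.70% of CD3-bearing barcodes still held at least 5.

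**Figure D4:**
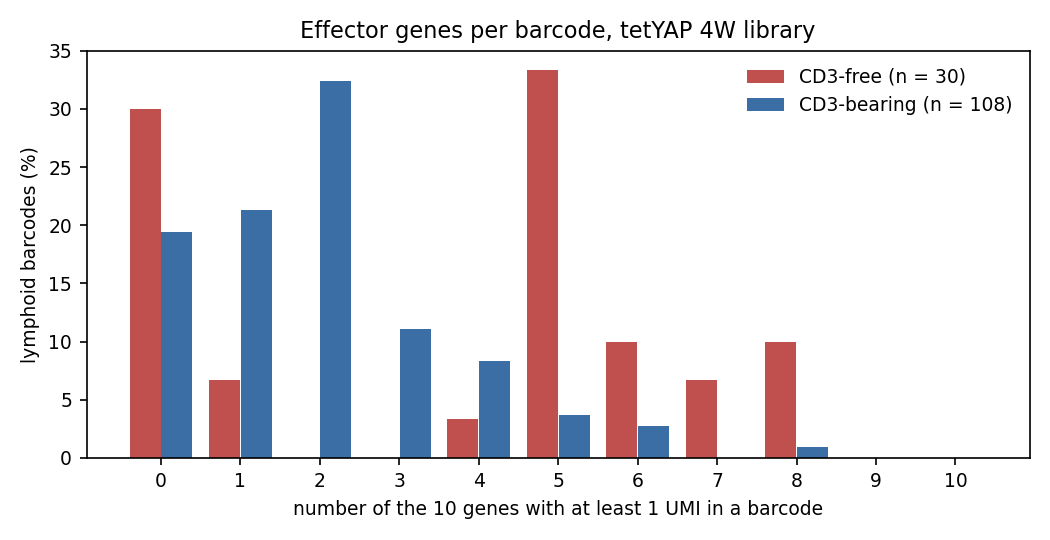
Number of the 10 effector genes with at least 1 UMI in a barcode (x axis) against the share of lymphoid barcodes (y axis, %), tetYAP 4W library. The CD3-free barcodes fall into 9 with no gene, 2 with 1 and 19 with 4 to 8, whereas 35 of the 108 CD3-bearing barcodes hold exactly 2.

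Nkg7 was the common partner. It was found in 104 of the 138 lymphoid barcodes, including every barcode with Gzma (24), Gzmb (27), Prf1 (21), Ncr1 (21), Klra7 (14), Cd160 (22) or Ifng (42). It was also present in 28 of 29 barcodes with Klre1 and in 16 of 19 with Cd8a. Gzma and Ncr1 shared 19 barcodes, which were 79.2% of the Gzma and 90.5% of the Ncr1 barcodes. Gzma and Prf1 shared 16, Gzma and Gzmb 13, and Prf1 and Gzmb 11. Klra7 nested within Ncr1, with 13 of its 14 barcodes holding both. Cd8a stood apart: it shared no barcode with Ncr1 or Klra7, 1 with Gzma, 3 with Prf1, 6 with Gzmb and 7 with Ifng. Ifng was found in 13 of 22 Cd160 barcodes and in 7 of 24 Gzma barcodes. In the control the same genes met in few barcodes. Its only Gzma-positive barcode also held Nkg7, Ncr1, Klre1 and Ifng.

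**Figure D5:**
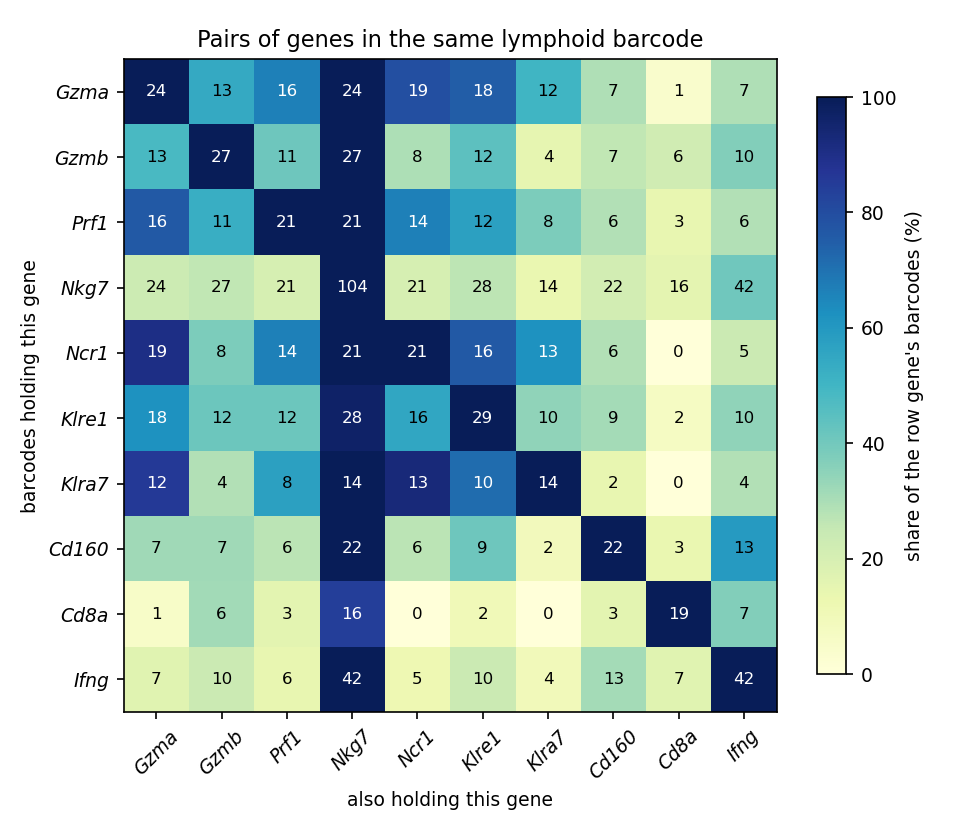
Number of tetYAP 4W lymphoid barcodes that hold both genes of a pair (figures in the squares; the diagonal gives the barcodes of each gene), coloured by the share of the row gene's barcodes (%). The Nkg7 column runs from 84.2% for Cd8a to 100% for 7 other genes, Gzma and Ncr1 share 19 barcodes, and Cd8a shares none with Ncr1 or Klra7.

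The CD3-bearing barcodes were sorted further by other T cell genes, in subsets chosen after their values were seen and overlapping one another. In the 20 barcodes with Cd8b1, the CD8 beta chain, Cd8a had 36 of its 38 UMIs, in 17 barcodes, and Ifng was found in 6. Of the 9 barcodes with Cd4, 6 held Nkg7 and 3 held Ifng, and Gzma, Gzmb, Prf1 and Cd8a were not detected in them. The 35 barcodes with constant region UMIs of the gamma or delta receptor chains (Trdc, Tcrg-C1, Tcrg-C2 or Tcrg-C4) all held Nkg7. They also held all 4 CD3-bearing barcodes with Ncr1, all 3 with Klra7, 4 of 5 with Gzma, 12 of 19 with Cd160 and 16 of 39 with Ifng. Trac UMIs were present in 23 of these 35 too, so the subset is not 1 cell type. The 5 CD3-bearing barcodes with Gzma held 1 to 16 CD3 UMIs, and Trac UMIs lay in 1 of them, which also held 6 of the Cd8a UMIs. Whether any of these droplets held more than 1 cell was not resolved, because the doublet caller marked 0.131% of tetYAP 4W barcodes, too few for it to have worked.

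Genes around the effector set were read from 12 lists of 120 genes. Of the 80 with at least 10 UMIs in the lymphoid barcodes, 25 were at least 2-fold higher in CD3-free barcodes, 20 at least 2-fold lower and 35 between. Other NK receptors were higher in 9 of 14 and lower in none. Klrd1, the CD94 chain that pairs with NKG2 receptors, had 80 UMIs in 23 CD3-free and 66 UMIs in 37 CD3-bearing barcodes (2.06, 1.57 to 2.55). The Ly49 genes Klra4 (19 and 10 UMIs, 2.71) and Klra9 (17 and 4 UMIs, 3.87) were higher, and Klra8 had 12 UMIs in CD3-free barcodes only, which made it at least 13.7-fold higher. Klrk1 (NKG2D) and Klrb1c (NK1.1) lay between, at 0.60 (0.01 to 1.17) and 0.24 (-0.90 to 1.26). Among signalling adaptors Tyrobp (DAP12) stood at 3.51 (3.19 to 3.83) and Fcer1g at 2.66 (2.27 to 3.05). Cd247, the CD3 zeta chain, was lower with 3 and 31 UMIs, at -1.59 with an interval that reached 0.09. Both adaptors that were higher are also transcribed in macrophages and pDCs, and stayed higher without the pDC-marked barcodes, at 3.19 and 2.77.

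Other granule genes were higher in 3 of 9 and lower in none. These were the granzyme inhibitors Serpinb9 (1.68, 0.52 to 2.83) and Serpinb6b (1.88, 0.73 to 3.04) and the granzyme-activating protease Ctsc (1.18, 0.42 to 1.91), the last at 0.97 without the pDC-marked barcodes. Srgn, the granule proteoglycan serglycin (-0.29, -0.75 to 0.14), and Ctsw (0.33, -0.378 to 0.996) lay between. Of the effector cytokines and ligands, the chemokines Ccl3 (2.29, 1.53 to 3.07), Ccl4 (2.04, 1.68 to 2.41) and Ccl5 (1.35, 1.22 to 1.48) were higher. Without the pDC-marked barcodes, Ccl4 kept 65 of its 143 CD3-free UMIs and stood at 1.37 (0.91 to 1.82). Ccl3 and Ccl5 then stood at 2.63 and 1.81. Ltb, lymphotoxin beta, had 4 UMIs in CD3-free and 266 in CD3-bearing barcodes (-4.28, -6.16 to -2.90), and Xcl1 stood at -1.11 (-2.07 to -0.26). Fasl, the death ligand, had 7 and 17 UMIs (0.50, -1.01 to 1.84). Of the 6 genes for receptors and signalling that induce Ifng, Il12rb2 and Il18rap were past 2-fold higher, at 1.56 (-0.29 to 3.35) and 1.14 (-0.25 to 2.45), both with intervals across 0.

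T cell genes lay on the other side. The receptor constant regions were lower in 5 of 7 and higher in none, with Trbc2 at 12 and 424 UMIs (-3.36, -4.33 to -2.54) and Trbc1 at 38 and 344 (-1.40, -1.92 to -0.91). Other T cell genes were lower in 9 of 14, with Bcl11b, a T lineage factor, not detected in CD3-free against 66 UMIs in CD3-bearing barcodes and Thy1 at 3 and 79 UMIs. Cd4, a coreceptor, was higher (2.36, 1.11 to 3.68). All 15 Cd4 UMIs of CD3-free barcodes lay in 6 barcodes without any effector gene UMI, and without the pDC-marked barcodes Cd4 was not detected. Of 6 genes linked to resident innate lymphocytes, Cxcr6, a homing receptor of liver-resident lymphocytes, had 159 UMIs in 60 CD3-bearing barcodes and was not detected in CD3-free ones, and Il7r had 63 and 4 UMIs. None of the 6 was at least 2-fold higher, and 4 lay between. These were Tmem176b (0.54), Rgs1 (0.39), Tmem176a (0.29) and Itga1 (-0.72), all with intervals across 0. Irf8, the only gene tested of the circulating NK cell list, had 98 UMIs in 23 CD3-free and 9 UMIs in 7 CD3-bearing barcodes, at 5.22, and 4.03 without the pDC-marked barcodes. Transcription factors of cytotoxic cells were higher in 2 of 6 genes and lower in none, and both tested partner genes of the receptors and ligands lay between. Inhibitory receptors were sparse, with 1 of 4 higher and 1 lower: Lag3 had 13 UMIs in 3 CD3-free barcodes and 1 UMI in CD3-bearing ones, a log2 interval of 2.74 to 10.89, and was not detected in the 23 without the pDC mark.

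Ranked over 2387 genes with at least 30 UMIs in these barcodes, leaving out the CD3 genes and mitochondrial and ribosomal protein genes, the 8 with the highest ratio were Klk1, Rnase6, Iglc3, Igkc, Siglech, Irf8, Ly6d and Gzma. Most of these lay in the 7 pDC-marked barcodes: Klk1, Iglc3 and Siglech had 0 and Igkc and Ly6d 1 UMI left in the 23 CD3-free barcodes without the mark, while Gzma moved from 4.55 to 5.01. Klk1 and Siglech belong to the pDC marker list, so for them this follows from how the 7 were marked. The 8 with the lowest ratio were Ltb, Ms4a6b, Cxcr6, Trac, Trbc2, Thy1, Itpkb and Lat. Over the 138 barcodes, which share 1 library, the genes whose log levels were most like the summed effector genes were Ccl5 (Pearson r = 0.77), AW112010 (0.69), Klrk1 (0.59), Klrd1 (0.52), Ctsw (0.52), Cd52 and Il2rb (0.49 each) and Ccl3 (0.43). Of the effector genes themselves Nkg7 had the highest value (0.93) and Cd8a the lowest (0.17), in a sum that includes each of them.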

How the data were processed

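The authors deposited raw counts, whole UMI numbers per gene and barcode. Per the study's methods and the labels, reads were processed with Cell Ranger against mm10, barcodes were down-sampled to a set number per condition, and those above an upper UMI limit were removed. The libraries were left with unequal numbers of barcodes, and the effect on shares and ratios between them was not tested. Control and tetYAP 4W barcodes were told apart by their name prefix and grouped by the genotype label. The members and gene lists were chosen with earlier results of these data known.

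Barcodes were scaled to 10000 UMIs, log-transformed and clustered with scanpy 1.11.5 (2000 variable genes without the 10 members and 3 CD3 genes, 20 principal components, 15 neighbours, Leiden resolution 0.8). A cluster took a class name, written "-like", where at least 3 of its markers had 10 UMIs and a 3-fold higher level than other barcodes of the same library. The 7 clusters that met this for no list were left unnamed. The CD3 genes and mitochondrial and ribosomal protein genes were left out of the ranking. Scrublet called 0.201% of control and 0.131% of tetYAP 4W barcodes doublets, so doublets remain. UMIs were summed per group and divided by its total. In a ratio, counts under 3 UMIs were set to 3. Intervals are exact Poisson, Clopper-Pearson or conditional binomial at 95% and cover counting error only, since barcodes of 1 library are not replicates. Genes needed 10 UMIs for list counts. Named genes were the 10 members, list genes with 10 UMIs, the 8 genes at each end of the ratio (of those with 30 UMIs) and the 8 most correlated with the summed members. The ratio and its interval were tested on simulated group sums drawn as independent Poisson counts. Such sums hold no clumping of UMIs in a few barcodes, so the intervals were not tested for it. edgeR 4.0.16 served for an alternative library scaling only.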

Additional observations from a re-analysis of the deposited data

How the results depend on the processing

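No paired analysis was possible because each group is 1 library. For the same reason no library could be left out. Depth limits the sparse genes most: Prf1, Cd160, Cd8a, Klra7 and Ifng had between 31 and 69 UMIs each in the tetYAP 4W library. In all, 68 of 109 recomputed summary values stayed within the interval of the main value, or within 1.5 times of a count. The cause of the others was not tested.

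The lymphoid barcodes numbered 35 in place of 138 when those with at least 3 UMIs of other immune markers were left out. The CD3-free share (21.7%) was 1.03% at Leiden resolution 1.2, 14.4% with classes called without clusters, 11.6% with CD3 or T cell receptor constant genes (6.87% also without pDC-marked barcodes), 30.4% and 39.9% after thinning to 2000 and 1000 UMIs, and 11.4% without barcodes holding 3 UMIs of other immune markers. The share of effector gene UMIs in lymphoid barcodes (98.3%) was 35.2% at resolution 1.2, 94.2% without clusters, 97.0% at 1000 UMIs, 22.3% with the limit of 3 and 88.9% with a limit of 10 UMIs of other immune markers. The share with at least 2 effector genes (60.1%) was 38.4% at 2000 and 26.8% at 1000 UMIs.

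The summed log2 ratio of CD3-free to CD3-bearing (1.98) was 2.63 with all variable genes, 2.44 at resolution 0.4, 2.63 without clusters, 0.24 with T cell receptor genes in the call (1.25 also without pDC-marked barcodes), 1.64 at 2000 and 1.61 at 1000 UMIs, 1.71 without barcodes above 30% mitochondrial UMIs, 2.60 with the limit of 3 and 2.44 without pDC-marked barcodes. It reversed to -0.23 (-3.86 to 1.05) at resolution 1.2, where a single CD3-free barcode remained. For single genes, Nkg7 (-0.71), Gzmb (-0.0695) and Klre1 (-0.40) reversed with T cell receptor genes in the call and Ifng (0.96) at 1000 UMIs. Leaving out the pDC-marked barcodes under the former call put Gzmb at 0.94 (-0.33 to 2.01). Cd160, whose interval spanned 0, lay on both sides of 0. Between libraries the summed log2 ratio (6.09) was 6.77 at 2000 UMIs and 5.53 with TMM factors.

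List genes higher in CD3-free barcodes (25) numbered 4 at resolution 1.2, 16 and 10 at 2000 and 1000 UMIs, 6 with the limit of 3 and 10 with at least 50 UMIs per gene. Those lower (20) numbered 13 with all variable genes, 1 at resolution 1.2, 13 without clusters, 13 and 6 at 2000 and 1000 UMIs, 4 with the limit of 3, 12 with at least 50 UMIs and 9 with T cell receptor genes in the call and no pDC-marked barcodes. The settings on pDC markers, on 10 UMIs of other immune markers and on the joined clusters were chosen after seeing the data.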
